A study of Mus musculus with 10 samples.

Results

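The Krüppel-like factors described here are 10 genes, Klf2, Klf3, Klf4, Klf5, Klf6, Klf7, Klf9, Klf10, Klf13 and Klf15, taken by symbol from the 24016 gene symbols of the transcription table. The table holds 17 Klf symbols in all. Organoids grown from mouse duodenum in Matrigel were kept in 2 media. WENRC, labelled as intestinal stem cell, held EGF, Noggin, R-spondin, Wnt3A and CHIR-99021, a GSK3 inhibitor that activates Wnt signalling. ENRI, labelled as enterocyte, left out Wnt3A and CHIR-99021 and added IWP-2, which blocks Wnt secretion. GRO-seq, global run-on sequencing of the RNA that polymerases already on a gene go on to make in purified nuclei, gave 2 libraries per medium, from mice numbered 1 and 2. Nothing in the labels says how separate the cultures were, so p-values measure the spread between these libraries. H3K27me3, the mark written by Polycomb repressive complex 2, comes from 1 ChIP-seq library for each medium, so differences between the H3K27me3 lists have no replicate check.

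Krüppel-like factors are transcription factors that bind GC-rich and CACCC elements through C-terminal zinc fingers, and their N-terminal parts recruit different partners. Klf4 is known from differentiated villus and goblet cells and Klf5 from the proliferating crypt. Klf2, Klf6 and Klf7 belong with Klf4 and Klf5 to the branch that acts largely as activators. Klf3 binds the corepressor CtBP, and Klf9, Klf10 and Klf13 bind the corepressor Sin3A. Klf15 is known for its part in glucose and amino acid metabolism.

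Depth over all transcripts was 9245915 to 29128101 recovered reads per GRO-seq library. The summed level of 7 enterocyte markers was 18.9 to 43.9 RPKM (reads per kb of transcript, scaled to depth) in WENRC and 543 to 735 RPKM in ENRI, and that of 5 stem cell markers was 16.9 to 22.4 RPKM and 1.69 to 2.27 RPKM. Of 5 goblet cell markers, summed levels were 3.64 to 6.84 RPKM in WENRC and 27.4 to 43.6 RPKM in ENRI. The stem cell and enterocyte labels thus had their markers. The goblet cell sum moved with the medium as well, except that Spdef, named after its values were seen, had overlapping libraries and means of 0.479 RPKM in WENRC and 0.384 RPKM in ENRI. All 5 endothelial markers together stayed at 0.0464 to 0.105 RPKM in WENRC and 0.0994 to 0.131 RPKM in ENRI, and none was at 0 reads in every library. Among 6 mesenchymal markers (summed level 0.993 to 1.49 RPKM in WENRC, 0.822 to 0.923 RPKM in ENRI) only Acta2 passed the level filter used below, and among 5 immune markers (13.6 to 17.0 RPKM, then 5.73 to 5.75 RPKM) only Cd68. These are bulk libraries, so more transcription per cell and more cells of a type cannot be told apart. The part of a changed cell mixture in the values below was not tested.

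H3K27me3 lay at the promoters of Klf2, Klf4 and Klf15. The bases just upstream of these starts are printed below, with those of Klf6 as an example of a member without the mark. Capitals mark CACCC or its reverse complement GGGTG, and GGGCGG or its reverse complement CCGCCC. Each sequence covers 250 bases before the gene start on the gene's strand, from RefSeq in build GRCm38.p6, where 8 of the 10 genes matched (Klf5 and Klf10 were named only).
Klf2, chr8:72318812-72319061, plus strand: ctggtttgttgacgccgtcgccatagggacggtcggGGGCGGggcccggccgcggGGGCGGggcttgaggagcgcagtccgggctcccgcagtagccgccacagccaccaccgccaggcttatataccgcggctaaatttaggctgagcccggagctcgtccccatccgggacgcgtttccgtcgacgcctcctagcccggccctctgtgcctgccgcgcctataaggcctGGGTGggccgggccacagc
Klf4, chr4:55532476-55532725, minus strand: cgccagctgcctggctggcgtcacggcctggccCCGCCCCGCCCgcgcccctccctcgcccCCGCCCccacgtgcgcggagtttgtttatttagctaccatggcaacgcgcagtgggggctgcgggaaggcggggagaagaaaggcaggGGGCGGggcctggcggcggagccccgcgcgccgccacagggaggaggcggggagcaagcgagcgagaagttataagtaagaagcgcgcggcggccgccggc
Klf15, chr6:90462326-90462575, plus strand: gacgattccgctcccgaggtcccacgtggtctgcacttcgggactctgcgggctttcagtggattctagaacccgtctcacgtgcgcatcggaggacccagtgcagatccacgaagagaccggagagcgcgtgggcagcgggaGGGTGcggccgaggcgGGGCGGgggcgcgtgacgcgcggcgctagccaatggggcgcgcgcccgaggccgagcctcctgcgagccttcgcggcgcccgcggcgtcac
Klf6, chr13:5861239-5861488, plus strand: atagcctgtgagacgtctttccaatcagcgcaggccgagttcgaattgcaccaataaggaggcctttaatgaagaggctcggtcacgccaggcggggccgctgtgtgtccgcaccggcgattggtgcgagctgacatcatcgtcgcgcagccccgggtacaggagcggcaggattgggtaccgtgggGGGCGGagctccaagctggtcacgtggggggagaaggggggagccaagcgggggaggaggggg
The GGGCGG element, searched on both strands, occurred 2 times in Klf2, 4 times in Klf4, 1 time in Klf15 and 1 time in Klf6, and in 32.7% of 32851 such windows over all genes. CACCC occurred 1 time each in Klf2 and Klf15 and was not found in the windows of Klf4 and Klf6, while 52% of all windows held it. No base was shared between the 2 kinds of match in these 4 windows. CCAAT, also on both strands, matched 4 times in Klf6 and 1 time in Klf15, with a share of 33.8% over all windows. Klf6 does not stand for every member without the mark. GGGCGG and CACCC occurred 6 and 5 times in Klf3, 3 and 1 in Klf13, 1 and 3 in Klf7, and 0 and 1 in Klf9. Klf15 had 37 CpG dinucleotides, Klf4 32, Klf2 29 and Klf6 21, against a median of 6 over all windows. The windows of the 3 genes with promoter H3K27me3 thus held the most CpG among the 8 windows, the other 5 lying between 13 and 24. The called regions need not cover these bases. Counted from the mm9 starts, the nearest region at Klf4 began 634 bp upstream. At Klf2 only the WENRC narrow region reached upstream of the start, by 11 bp. A match is a description of these letters only.

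Klf6, Klf5, Klf3 and Klf10 carried most of the transcription of the 10 genes in both media, and Klf4 joined them in ENRI. The summed level of the 10 genes was 54.6 and 66.9 RPKM in the WENRC libraries of batch 1 and batch 2, the numbering in the authors' header, and 87.1 and 98.2 RPKM in ENRI. Klf6, Klf5, Klf3 and Klf10 together gave 86.9% and 85.9% of it in WENRC, and 86.4% and 80.9% in ENRI. Klf4 gave 4.09% and 5.60% in WENRC and 7.0% and 12.6% in ENRI. In WENRC the order by mean RPKM was Klf6, Klf5, Klf3, Klf10, Klf4, Klf13, Klf2, Klf9, Klf7 and Klf15, and the ranges of neighbours overlapped for Klf6 and Klf5, Klf13 and Klf2, and Klf2 and Klf9. In ENRI it was Klf6, Klf3, Klf5, Klf4, Klf10, Klf2, Klf13, Klf9, Klf7 and Klf15, with overlap between Klf3 and Klf5, Klf4 and Klf10, and Klf9 and Klf7.

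**Figure D1:**
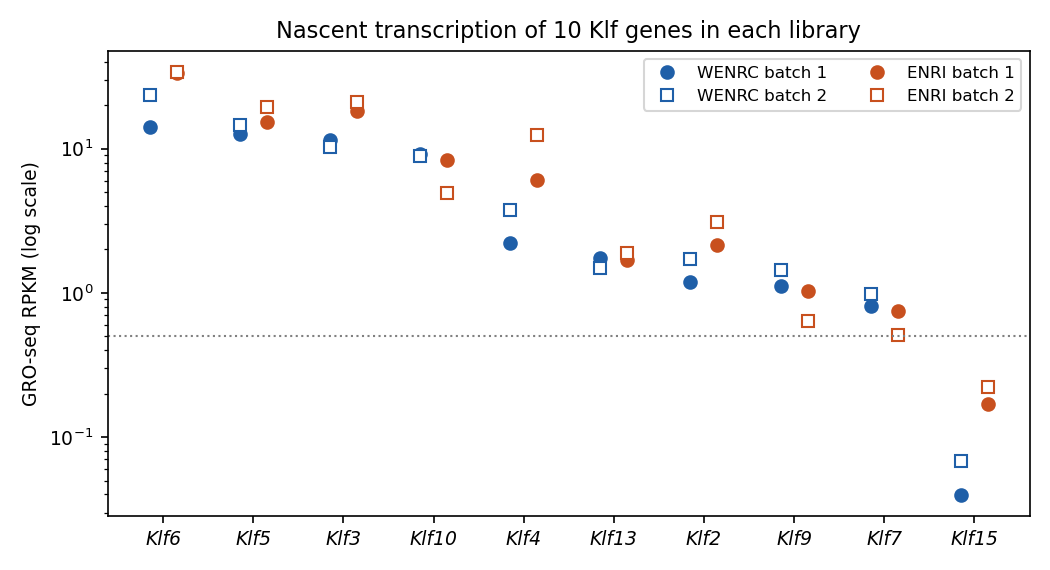
GRO-seq level of each of the 10 Klf genes (RPKM, log axis) in the 4 libraries, with WENRC in blue, ENRI in orange, batch 1 as filled circles and batch 2 as open squares. The dotted line is the 0.5 RPKM filter, and all 4 Klf15 values lie below it.

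The 5 members of the activator branch included Klf4, which had the largest fitted difference among the 9 tested members. Klf4 had 2.23 and 3.75 RPKM in WENRC (batch 1 and batch 2) and 6.10 and 12.4 RPKM in ENRI. Both ENRI libraries were above both WENRC libraries, and the ENRI library of batch 2 stood well above that of batch 1. On the scale log2(RPKM + 0.5), used for all fitted differences here, ENRI was higher by 1.44 ± 0.43 (SE, n = 2 libraries per medium, limma adjusted p = 0.0914), so Klf4 did not pass an adjusted p of 0.05. Klf6, an early response gene of injured epithelia, had 14.2 and 23.7 RPKM in WENRC and 33.4 and 34.1 RPKM in ENRI. The media did not overlap, and the WENRC pair was the more spread. Its fitted difference was 0.86 ± 0.36 (limma adjusted p = 0.157), with 1.21 in batch 1 and 0.51 in batch 2.

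Klf2, best known from endothelial cells and resting T cells, had 1.19 and 1.71 RPKM in WENRC and 2.13 and 3.08 RPKM in ENRI. All ENRI values were above the WENRC values, and the difference was 0.67 ± 0.24 (limma adjusted p = 0.119). It was 0.44 without the ENRI library of batch 2, and 1.08 to 1.14 in the edgeR and DESeq2 fits on reads. Those fits add no 0.5 RPKM and also scale the libraries in their own way. Their median over all genes was −0.05 to −0.003, against −0.21 in the main fit. With a pseudocount of 0.1 RPKM the limma difference of Klf2 was 0.80. Klf2 is a short transcript of 2.592 kb, and these levels rest on 41 to 161 reads. The ratio of its reads, ENRI over WENRC at equal depth, was 1.79 in batch 1 (exact binomial 95% interval 1.36 to 2.36) and 1.80 in batch 2 (1.26 to 2.63). Intervals on reads cover counting error only. Klf2 exceeded the summed level of all 5 endothelial markers in each library. The cell type that its transcription came from was not tested.

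Klf5 had 12.6 and 14.7 RPKM under WENRC and 15.4 and 19.4 RPKM in ENRI. The media again did not overlap, but the gap between the highest WENRC and lowest ENRI library was smaller than the spread within either medium. Its difference was 0.33 ± 0.27 (limma adjusted p = 0.397), below that of Klf4 in both batches. It was 0.17 without the ENRI library of batch 2, 0.50 without that of batch 1, and 0.59 to 0.64 in the edgeR and DESeq2 fits on reads. Klf7, a factor of neural and adipose development, had 0.815 and 0.975 RPKM in WENRC and 0.745 and 0.508 RPKM in ENRI. Klf7 was the member of this branch with lower ENRI values, at −0.31 ± 0.16 (limma adjusted p = 0.219).

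Klf3, the CtBP-binding repressor, had 11.5 and 10.3 RPKM in WENRC and 18.1 and 21.1 RPKM in ENRI. The libraries of each medium lay close together and the media were apart. ENRI was higher by 0.82 ± 0.25 (limma adjusted p = 0.0942), with 0.64 in batch 1 and 1.00 in batch 2. Klf3 had 2526 to 14047 reads per library, the most of the 10 genes in each library, over a transcript of 26.606 kb.

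Of the 3 Sin3A-binding members, Klf9 and Klf10 had lower ENRI values and Klf13 had overlapping media. No member of the 3 passed the test. Klf10, an early TGF-beta response gene, had 9.24 and 8.89 RPKM in WENRC and 8.30 and 4.94 RPKM in ENRI, a difference of −0.47 ± 0.31 (limma adjusted p = 0.308). A shorter Klf10 transcript, not fitted, had 9.24 and 9.54 RPKM in WENRC and 8.75 and 5.95 RPKM in ENRI. Its drop was the smaller in both batches. Klf9, a glucocorticoid and thyroid hormone responsive gene, had 1.11 and 1.44 RPKM in WENRC and 1.03 and 0.641 RPKM in ENRI, a difference of −0.42 ± 0.20 (limma adjusted p = 0.197). For both genes ENRI was the lower medium without overlap, and most of the gap came from batch 2. The ratio of Klf9 reads was 0.930 in batch 1 (exact binomial 95% interval 0.840 to 1.03), not separable from an equal level, and 0.445 in batch 2 (0.377 to 0.525). Klf10 gave 0.899 (0.847 to 0.954) and 0.556 (0.501 to 0.616), and Klf7 of the activator branch gave 0.915 (0.857 to 0.976) and 0.520 (0.469 to 0.578). These ratios are scaled to total reads. On that scale 65.7% of tested genes had lower ENRI values, with a median log2 difference of −0.21. An interval below equality thus does not by itself set a member apart from other genes. After quantile normalization the fitted differences were −0.07 for Klf7, −0.21 for Klf9 and −0.50 for Klf10. Klf13, a factor first described in T cells and erythroid cells, had 1.74 and 1.48 RPKM in WENRC and 1.68 and 1.89 RPKM in ENRI. These overlapped, with a difference of 0.12 ± 0.14 (limma adjusted p = 0.564). Klf13 overlaps E030018B13Rik on the other strand over 3682 bp, and the strand setting of the counting is not stated, so reads there cannot be separated.

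Klf15 was the lowest member in each library, at 0.04 and 0.0688 RPKM in WENRC and 0.169 and 0.221 RPKM in ENRI. It stayed below the filter of 0.5 RPKM in at least 2 libraries, so the main fit did not test it. Its 13 and 8 reads in WENRC stood against 62 and 44 in ENRI. At equal depth, ENRI reads were 4.23 times those of WENRC in batch 1 (exact binomial 95% interval 2.30 to 8.39) and 3.22 times in batch 2 (1.5 to 7.92). In the authors' deposited table, from edgeR with batch as a term, Klf15 was higher in ENRI by 2.12 (log2) at an FDR of 0.0245. Alternatives with other filters fitted Klf15 here and did not call it. edgeR with the batch as replicate block and at least 10 reads gave 2.13 (adjusted p = 0.101). Limma gave 0.33, with an adjusted p of 0.0562 at a filter of at least 10 reads and 0.11 without a filter.

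**Figure D2:**
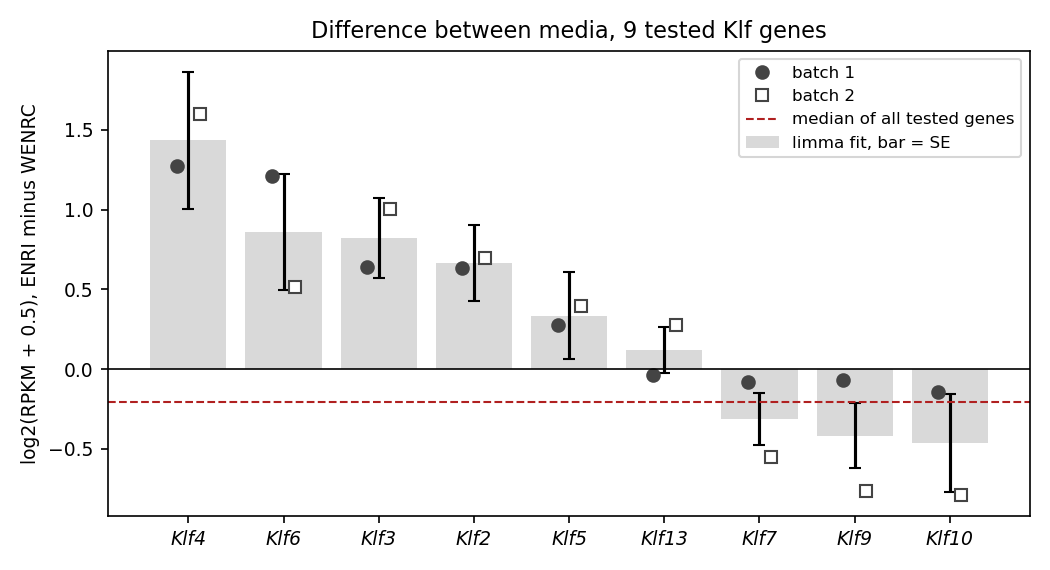
Difference ENRI minus WENRC in log2(RPKM + 0.5) for the 9 tested Klf genes, as the limma fit with its SE (bars) and within batch 1 (filled circles) and batch 2 (open squares). The dashed line is the median of all tested genes, −0.21, and Klf13 is the gene whose batches fall on different sides of 0.

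With limma, 0 of 9 tested members passed an adjusted p of 0.05 in either direction, where 0.147% of 11602 tested genes passed. At an unadjusted p under 0.05 there were 3 members, Klf2, Klf3 and Klf4, a share to be read against 39% of all tested genes. Of the 9, 6 had higher ENRI means on the log scale, where 34.3% of tested genes did. Libraries of the media did not overlap in 5 tested members with ENRI higher (23% of tested genes) and in 3 with ENRI lower (49.7%). The median difference was 0.33 over the tested members and −0.21 over all tested genes. The members kept their sign under every alternative run, including quantile normalization and median centring, which moved the median of all genes to −0.04 and −0.06.

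Tests on the recovered reads called more genes overall and some members with them. edgeR's quasi-likelihood test with the batch as replicate block called Klf4 higher (adjusted p = 0.0242), where it called 5.32% of genes higher. Without the block it called 0 members and 8.44% of genes, with 4 members at an unadjusted p under 0.05, as had 34.9% of genes (Klf4 adjusted p = 0.0679). With the block, limma called 0 members and 0% of genes (Klf4 adjusted p = 0.0869), with 2 members at an unadjusted p under 0.05, as had 33.1% of genes. With the block and a filter of at least 10 reads, edgeR called Klf4 (adjusted p = 0.0494) and 1.5% of genes higher. DESeq2, which called 14.7% of genes higher, called Klf3 (adjusted p = 3.6e-04), Klf4 (adjusted p = 0.00118) and Klf6 (adjusted p = 0.0113). In the authors' deposited table Klf4 (log2 1.83, FDR 7.69e-04) and Klf15 were higher at an FDR under 0.05, where 5.65% of genes were, and 0 members were lower, where 3.06% of genes were. Without the ENRI library of batch 1, limma called 6 members, Klf2, Klf3 and Klf4 higher and Klf7, Klf9 and Klf10 lower, while 15.6% of genes were called higher and 34.3% lower. With any other library left out, limma called 0 members, and 5.9%, 0% and 0% of genes for the ENRI batch 2, WENRC batch 1 and WENRC batch 2 libraries. At an unadjusted p under 0.05 these 3 fits had 1, 0 and 1 members, beside 40.9%, 14.4% and 11.7% of genes. Klf4 differed by 0.95, 1.12 and 1.75 in them. Single libraries also moved other members by over 1.5 times. Without the ENRI library of batch 2, Klf7 differed by −0.16, Klf9 by −0.21, Klf10 by −0.12 and Klf13 by 0.05. Without that of batch 1, Klf9 differed by −0.63, Klf10 by −0.81 and Klf13 by 0.19. Without the WENRC library of batch 1, Klf6 differed by 0.50 and Klf13 by 0.21, and without that of batch 2 Klf13 differed by 0.03.

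H3K27me3 separated Klf2, Klf4 and Klf15 from the other 7 members, none of which had a region within 2 kb of its start in any of the 4 lists. The authors called regions in each library against input DNA of the same medium, as a broad list that joins windows over longer distances and a narrow list. In the WENRC broad list 3 of 10 members had a promoter region, against 10.5% of all 24016 genes, and in the ENRI broad list 1 had one, Klf15, against 8.76%. In the narrow lists the 3 were the same in both media, against 17.8% of genes in WENRC and 19.6% in ENRI. For the other 7 members the nearest narrow region lay at least 45.364 kb from the start in WENRC and 15.713 kb in ENRI, both at Klf10.

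At Klf4 the WENRC broad region (mm9 chr4:55546156-55548518) lay 809 to 3171 bp upstream of the start, outside the transcript, with 37.5 normalized tags (scaled to a common library size) and a fold over input of 6.05, the authors' own values. The ENRI broad list had no region within 163.434 kb. The WENRC narrow list had 2768 bp there, from 634 to 3402 bp upstream, and the ENRI narrow list had 500 bp, from 1243 to 1743 bp upstream. Tag density was 14.6 normalized tags per kb over the longer WENRC region and 12.1 over the ENRI region. Both length and density describe called regions only, and 500 bp is the window width of the narrow lists. They therefore do not measure how far the mark itself differed. Farther upstream, both narrow lists had a region between 5190 and 5862 bp, 500 bp in WENRC and 672 bp in ENRI. Beyond it, the ENRI narrow list had 1035 bp from 7935 to 8970 bp upstream, with 16.8 normalized tags. The WENRC narrow list had 500 bp from 9132 to 9632 bp upstream, with 7.95 normalized tags.

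At Klf2 the mark lay over the gene itself. The WENRC broad region (mm9 chr8:74843774-74845886) ran from 813 to 2925 bp after the start with 48.0 normalized tags and a fold of 4.88, and the ENRI broad list had none within 337.819 kb. The narrow region covered 2869 bp in WENRC, starting 11 bp before the transcript, and 2134 bp in ENRI, starting 1004 bp into it. Densities were 20.2 and 17.0 normalized tags per kb. The ENRI narrow region therefore left the first 1004 bp of the transcript uncovered and spanned the rest. The WENRC broad region left the start uncovered as well.

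Klf15 was the member with a broad region over its start in both media. The region ran from 1668 bp before to 2108 bp after the start in WENRC (mm9 chr6:90410952-90414728, 86.2 normalized tags, fold 5.37) and from 2587 bp before to 555 bp after it in ENRI (mm9 chr6:90410033-90413175, 65.7 tags, fold 5.25). Its part inside the transcript was shorter in ENRI in the narrow lists too, ending at 2895 bp in WENRC and 559 bp in ENRI. Klf15 was also the member with the fewest reads.

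**Figure D3:**
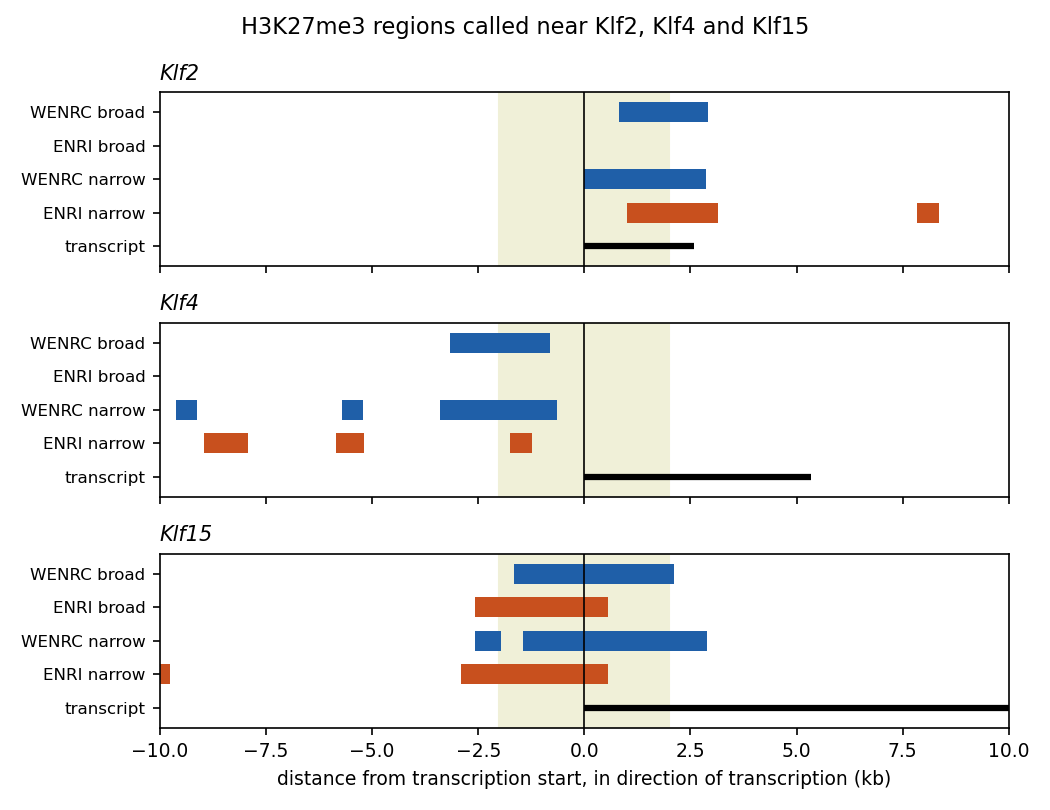
H3K27me3 regions called by the authors within 10 kb of the starts of Klf2, Klf4 and Klf15 (distance in kb along the direction of transcription), with WENRC in blue and ENRI in orange, the 2 kb promoter window shaded and the transcript in black. Klf2 and Klf4 have a broad region in WENRC and none in ENRI, and Klf15 has one in both.

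All 3 genes with promoter H3K27me3 had higher ENRI than WENRC levels in both batches, but so did Klf3, Klf5 and Klf6 without it. Klf2 and Klf4 are among 1052 genes whose promoter had a broad region in WENRC only. Of the 171 of these that were tested, 42.1% had the higher level in ENRI and the median log2 difference was −0.11, beside 34.3% and −0.21 over all tested genes. Of 2516 genes with a WENRC broad region at the promoter, 58.2% also had one in ENRI. The ENRI lists were the longer, with 6094 against 5009 broad and 55544 against 33499 narrow regions, while the median broad region was shorter, 1260 bp against 1596 bp. Calls also depend on the limits: with a fold over input of at least 8, 0 members were marked in either broad list and in the WENRC narrow list, and in the ENRI narrow list Klf4 alone, whose 500 bp region had a fold of 16.4. That region held only 6.03 normalized tags, whereas the longer WENRC narrow region at Klf4 held 40.4 at a fold of 5.27. With a promoter of 1 kb either side the ENRI narrow list kept only Klf15.

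Among the 16 relatives, 7 other Klf and 9 Sp genes, 8 passed the level filter and 0 passed the test. Klf11, a close relative of Klf10, averaged 3.96 ± 0.366 in WENRC against 4.81 ± 1.61 in ENRI (RPKM, mean ± SD, n = 2), with overlapping libraries. Sp2 had 3.59 ± 0.358 and 1.46 ± 0.252 RPKM, a difference of −1.07 ± 0.17 (limma adjusted p = 0.056), and Sp3, which shares GC boxes with Sp1, had 2.01 ± 0.0887 and 3.15 ± 0.200 RPKM, a difference of 0.54 ± 0.14 (limma adjusted p = 0.0794). In all, 3 tested relatives had higher and 5 lower ENRI values, with a median of −0.13. Klf14 had 0 reads in every library, and Klf8, Klf12 and Klf17 stayed below 0.1 RPKM.

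**Figure D4:**
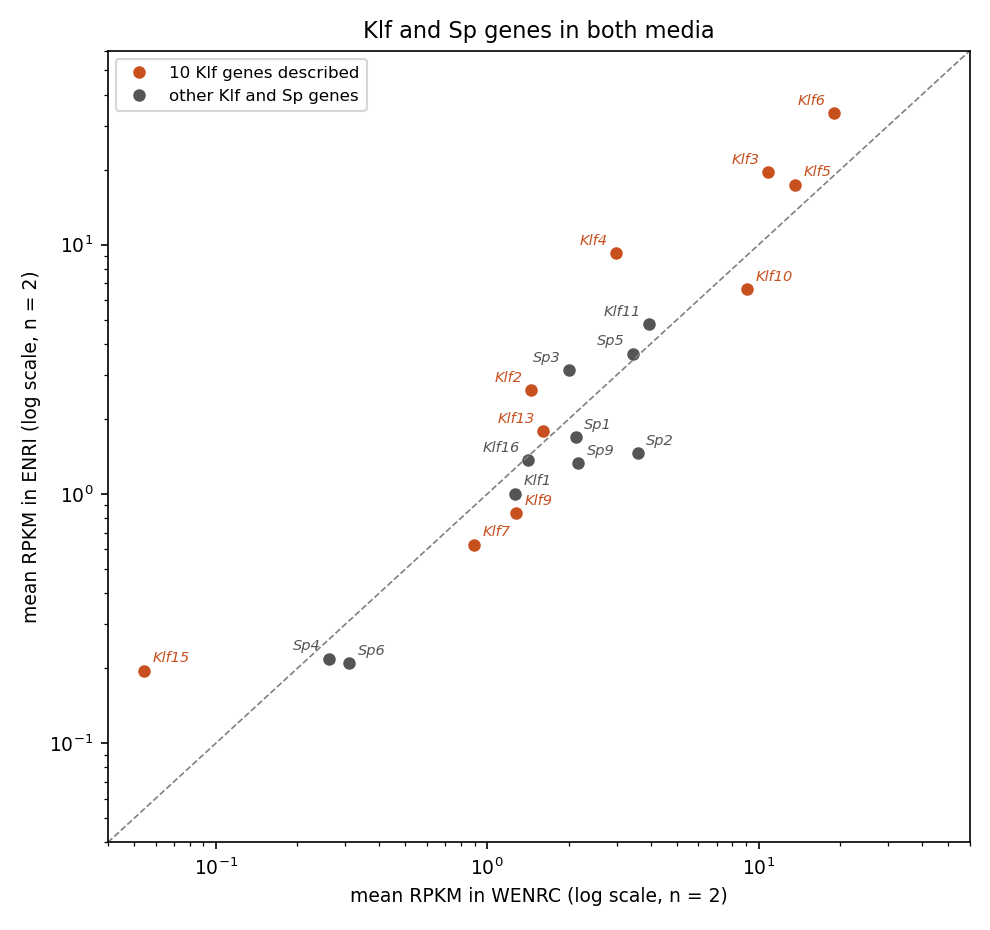
Mean RPKM of Klf and Sp genes in WENRC and ENRI (n = 2 libraries each, log axes), with the 10 Klf genes described in orange and the other Klf and Sp genes in grey. Klf2, Klf3, Klf4, Klf5, Klf6, Klf13 and Klf15 lie above the diagonal of equal levels and Klf7, Klf9 and Klf10 below it, and Klf8, Klf12, Klf14, Klf17, Sp7 and Sp8, with a mean under 0.04 RPKM in a medium, are left out.

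Partners and linked genes of the family were read from lists. Of 10 cofactor genes, all tested, 8 had lower ENRI values, where 65.7% of tested genes did. Their median was −0.28, and 0 passed. Ctbp1, which encodes a partner of Klf3, differed by −0.48 ± 0.13 (limma adjusted p = 0.0812), Sin3a by −0.21 ± 0.12 (adjusted p = 0.251) and the deacetylase gene Hdac2 by −0.78 ± 0.19 (adjusted p = 0.071). The ubiquitin ligase genes Wwp1, Fbxw7 and Smurf1, whose products turn over Klf proteins, differed by −0.26 ± 0.13, −0.18 ± 0.17 and −0.19 ± 0.26, beside −0.21 for all genes, and 0 of the 3 passed (limma). Of 9 genes linked to Klf4 or Klf5, 0 passed, 1 had a higher and 8 a lower ENRI value, against the same 65.7%. The one with the higher value was Alpi, the brush border phosphatase gene known as a Klf4 target, which averaged 7.49 ± 6.26 in WENRC against 48.7 ± 3.62 in ENRI (RPKM, n = 2). Alpi is also among the enterocyte markers above, so its rise is not separate from theirs, and a link to Klf4 was not tested. Ccnb1 and Cdk1, mitotic genes linked to Klf5, differed by −1.46 ± 0.21 and −1.34 ± 0.17 (limma adjusted p = 0.056 for both). In the authors' deposited table these 2 were lower at FDR 0.00223 and 0.00895, and Alpi higher at 1.17e-06. Ccnd1, a G1 cyclin gene, had 8.11 ± 0.0311 and 7.13 ± 7.61 RPKM, so the ENRI libraries lay far apart.

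Genes that share inputs with single members gave a mixed picture. Of 6 glucocorticoid-induced genes, chosen because Klf9 and Klf15 respond to the same hormone, 3 were tested and 0 passed. All 3 had higher ENRI values, where 34.3% of tested genes did. Their median of 0.72 was the value of Dusp1, which is also on the immediate early list. Per1 differed by 0.79 ± 0.17 (limma adjusted p = 0.062), opposite in sign to Klf9 and the same in sign as the untested Klf15, at 0.31 in batch 1 and 0.34 in batch 2. Sgk1, untested for its low level and named after its values were seen, was higher by 1.70 (log2) at FDR 0.00342 in the authors' deposited table. The other untested genes of this list, also named afterwards, were Fkbp5 and Zbtb16. Fkbp5 averaged 0.207 RPKM in WENRC and 0.203 RPKM in ENRI, with overlapping libraries and a deposited FDR of 0.889. Zbtb16 was higher by 1.29 (log2) at a deposited FDR of 0.253. Of 5 tested TGF-beta response genes, set beside Klf10, 2 were higher and 3 lower with a median of −0.14, and 0 passed. Of 12 tested immediate early genes, set beside Klf2, Klf4, Klf6 and Klf10, 6 were higher and 6 lower with a median of −0.02, and 0 passed. Fos differed by 0.75 ± 0.35 (limma adjusted p = 0.185) and Myc by −1.32 ± 0.57 (adjusted p = 0.165).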

How the data were processed

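GRO-seq values were deposited by the authors as scaled reads per RefSeq transcript, a signal in build mm9 counted over gene bodies with HOMER and compared with edgeR, per the file headers. FastQC, Bowtie, Bowtie2 and HOMER 4.3 are named in the submitters' processing notes. In each library 100% of values under 20 reads were whole multiples of 1 step (tolerance 0.1), so whole reads were recovered, and 1 longest transcript per symbol was kept. RPKM was computed here from the column totals, and 4 other per-library columns were not used. The log2 changes, p-values and FDR (a q-value) of the authors' deposited table came from edgeR with batch, and its likelihood ratio score was not used. The H3K27me3 lists give, per the file headers, a ratio to input (fold), a normalized tag signal, a score and a p-value.

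The filter was 0.5 RPKM or more in at least 2 libraries, and the test limma 3.58.1 (R 4.3.3) on log2(RPKM + 0.5) without a block, with Benjamini-Hochberg adjustment over 11602 genes. Alternatives used edgeR 4.0.16 and DESeq2 1.42.0 on recovered reads, other pseudocounts, filters and scalings, the replicate block and each library left out. Columns name a medium and a batch but no mouse, so the block was the batch. Mouse numbers recur across media in the titles, and the deviations of libraries of 1 batch correlated at 0.0126. A promoter was 2 kb either side of the start, and 1 bp of overlap marked it. All 10 genes were named by rule, and up to 6 tested genes per list by largest absolute log2 difference; untested relatives and overlapping genes were named for their level or position. Members and lists were chosen with earlier results of these data known. The fits were tested on simulated data. Samples of input and of total H3 were left out, input entering through the authors' region calls.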

Additional observations from a re-analysis of the deposited data

Results flagged for a closer look

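Klf13 had the sign of its ENRI minus WENRC difference turn between batches, at −0.04 in batch 1 and 0.28 in batch 2 on the scale log2(RPKM + 0.5), a gap of 0.32. Each batch holds 1 library per medium, so this difference between batches was not tested.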

How the results depend on the processing

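The directions of the 9 tested members held in all alternatives, with 11 values newly past the threshold. Members called (0 as reported) were 1 in edgeR with the replicate block, 1 in the same test with a filter of at least 10 reads, 3 in DESeq2, and 0 to 6 with 1 library left out. Genes called (17 as reported) were 1 with a pseudocount of 0.1, 0 without a filter, 1491 with at least 10 reads, 929 after quantile normalization, 0 in limma with the replicate block, 979 in edgeR without and 932 with it, 315 in edgeR with it and at least 10 reads, 2738 in DESeq2, and 0 to 5794 with 1 library left out, where the lone library of a medium was assumed to vary like the other pair. Where 0 genes passed, 5508 (no filter), 3839 (block), 1675 (WENRC batch 1 left out) and 1354 (WENRC batch 2 left out) had an unadjusted p under 0.05 in limma. The members' median (0.33) was 0.48 after median centring, 0.60 and 0.59 in edgeR without and with the block, 0.64 in DESeq2, 0.84 in edgeR with the block and the read filter, where Klf15 enters, and 0.17 to 0.50 with 1 library left out. Promoters marked fell to 0 in both broad lists and the WENRC narrow list and to 1 in the ENRI narrow list at a fold of at least 8, and to 1 in the ENRI narrow list at 1 kb. The edgeR fit with the read filter was chosen after seeing the data. Depth limits Klf15 and Klf2 most, and the cause of these shifts was not tested.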
